A study of Mus musculus with 8 samples.

Results

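Dbp, Tsc22d3 and Zbtb16 encode transcriptional regulators that follow the circadian clock or the glucocorticoid hormones, and they were examined in the medial prefrontal cortex (mPFC) of mice whose excitatory neurons lack the orphan receptor GPR158. They were taken from the authors' deposited table by matching its rows on chromosome, start, end and strand to annotated genes and keeping these 3 symbols, so they are 3 of the 2372 genes listed. RNA was sequenced from 4 CaKO mice, of genotype CamK2A-Cre;Gpr158flox/flox, and 4 control mice, Gpr158flox/flox littermates without Cre. All 8 were untreated adult males on a C57Bl/6J background, and both groups carry the floxed alleles. Cre under the CamK2A promoter acts in forebrain excitatory neurons, while the RNA came from whole tissue that also holds interneurons, glia and vessels. In such tissue, fewer cells of a type and less RNA per cell cannot be told apart. Mice were housed on a light/dark cycle, and the hour of tissue collection and any hormone level were not given in the sources used here.

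DBP, the D-box binding protein, belongs to the PAR bZIP family. In the molecular clock, CLOCK and BMAL1 drive genes through E-boxes, PER and CRY proteins repress them, and Dbp is among the driven genes with a strong daily rhythm in many tissues. Glucocorticoids bind the receptors encoded by Nr3c1 and Nr3c2, which then act on target genes. Among the best known targets in many cell types are Tsc22d3, which encodes the leucine zipper protein GILZ that dampens inflammatory transcription, and Zbtb16, which encodes the zinc finger repressor PLZF. The clock gene Per1 is also a target of the glucocorticoid receptor, which links both systems.

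All 3 genes were lower in CaKO mPFC, and the decrease of Dbp and Tsc22d3 passed the test while that of Zbtb16 did not. In the authors' deposited table, the CaKO level was 57.0% of control for Dbp, 73.2% for Tsc22d3 and 79.3% for Zbtb16. Calls were the authors' adjusted p-values below 0.05, and 3.24% of the 12938 genes in the adjustment were called, 1.97% lower and 1.27% higher. The 3 genes were selected on these same fold changes and p-values, so their values describe the genes and nothing is read from the count of 2 called.

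The table gives normalised read counts, that is read counts divided by 1 factor per library, for the 4 CaKO libraries. The controls' own library values were not analysed here, so a control level below is the level implied by the CaKO mean and the authors' fold change, with no error of its own. This takes the deposited fold change as a plain ratio of normalised means, with no shrinkage towards 0, which the sources used here do not state. Over the listed genes the CaKO libraries held from 2832931 to 3183638 reads, which is part of each library, so the total depth is unknown. Of the listed genes, 0 overlapped Gpr158, so loss of the targeted transcript could not be used to check the genotypes. Of 7 cortical excitatory markers fixed as a check of the tissue, Camk2a, Nrgn, Tbr1 and Emx1 were listed, at CaKO means of 46287, 12792, 2316 and 118.9 normalised counts, and their differences between genotypes are given with the other cell type markers. The other 3 had no value here, nor did any of 6 interneuron markers. Among 5 striatal markers, which bear on neighbouring tissue, Drd1 and Ppp1r1b were listed at means of 131.6 and 475.2.

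Dbp (ENSMUSG00000059824.12) lies on chromosome 7 from 45705088 to 45710203 on the plus strand (GRCm38). The 250 bases before its RefSeq start at 45705247, chr7:45704997-45705246, are printed to show the clock output promoter that was searched for clock and hormone motifs, with the single match in capitals. It is a CCAAT box, read on the opposite strand, that begins 222 bases before the start. The gene's outermost start in GENCODE, given above, lies upstream of the RefSeq start, so part of the window is inside the gene as GENCODE draws it.
Dbp promoter: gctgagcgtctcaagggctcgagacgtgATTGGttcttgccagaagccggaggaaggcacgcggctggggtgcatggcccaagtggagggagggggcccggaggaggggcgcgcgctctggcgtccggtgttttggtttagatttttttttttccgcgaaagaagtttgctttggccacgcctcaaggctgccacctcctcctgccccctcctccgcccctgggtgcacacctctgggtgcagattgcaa

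Dbp had 208.0, 246.5, 177.0 and 350.1 normalised counts in CaKO replicates 1 to 4, against an implied control level of 430.2. Each CaKO library lay below the control level, replicate 3 at 41.1% of it and replicate 4 at 81.4%. The CaKO mean was 245.4 ± 75.4 normalised counts (SD, n = 4). The authors' deposited table lists Dbp as 1.75-fold lower, at -0.81 on the log2 scale, an adjusted p of 0.00289 and the 71st smallest p of the adjustment, so it fell. Taking the authors' p as that of a Wald test, the SE of this fold change was 0.19 and its 95% interval ran from -1.18 to -0.44.

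The CaKO libraries differed more in Dbp than in most of the listed genes. The highest held 1.98 times the lowest. Its coefficient of variation of 30.7% was above that of 97.0% of 1984 listed genes in the adjustment with a CaKO mean of at least 50, whose median was 11.7%. The listed genes all had an unadjusted p below 0.05, so they do not stand for all genes. The call held with each CaKO library left out, by an approximation from the deposited values, the difference being -0.68 on the log2 scale when replicate 3 was left out and -1.03 when replicate 4 was. Exons of Sphk2, a sphingosine kinase gene on the opposite strand, cover 18.0% of the exon bases of Dbp. The sources used here do not state whether reads were assigned by strand. The overlap could thus add reads of Sphk2 to Dbp or leave reads of Dbp uncounted. Sphk2 itself had no value here.

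**Figure D1:**
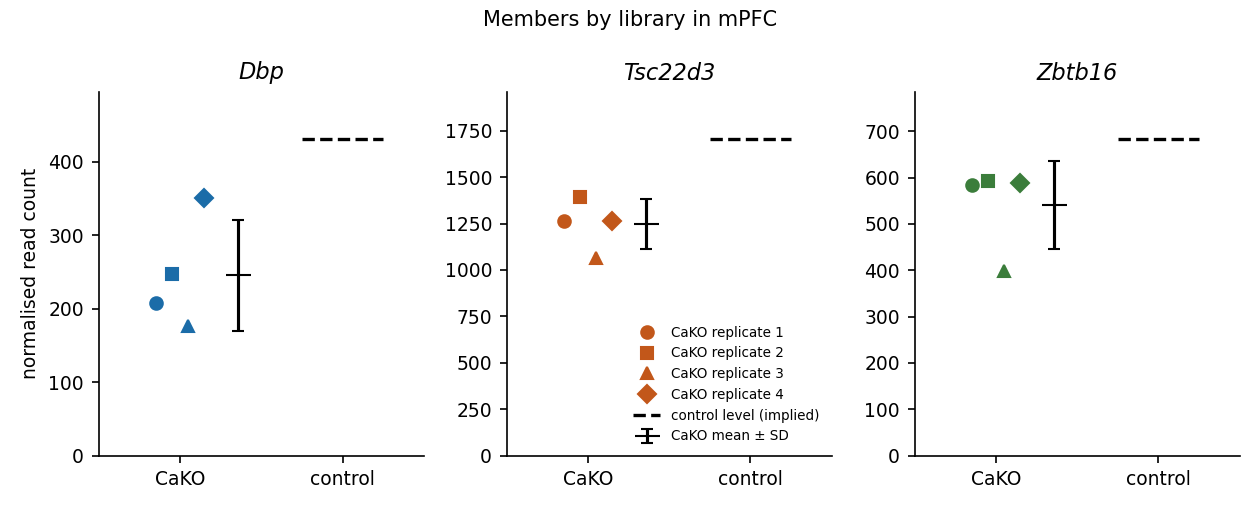
Normalised read counts (vertical axes, each from 0) of Dbp, Tsc22d3 and Zbtb16 in the 4 CaKO libraries, 1 symbol per replicate, with the CaKO mean ± SD (n = 4) as a bar and the control level implied by the authors' fold change as a dashed line without error. All 4 CaKO libraries lie below the control line in each panel, and replicate 3 is the lowest in all 3, at 177.0, 1067 and 397.6.

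Tsc22d3 (ENSMUSG00000031431.13) lies on chromosome X from 140539528 to 140600659 on the minus strand (GRCm38). RefSeq gives it 3 starts, and a count per gene cannot say which of them the reads came from. The 250 bases before its outermost start, at 140600522, and before its innermost, at 140542668, are shown because they lie at opposite ends of the locus and differ in the hormone motif. The outer one holds a glucocorticoid receptor hexamer (AGAACA on the opposite strand), in capitals, that begins 185 bases before the start, and the inner one holds no match. They cover chrX:140600523-140600772 and chrX:140542669-140542918 and are written in the direction of the gene. In GENCODE a protein-coding transcript starts at 140543187, upstream of the innermost RefSeq start, so the inner window lies wholly inside that transcript. The bases before 140543187 were not searched. The outermost start in GENCODE, 140600659, also lies upstream of the RefSeq one, so part of the outer window is inside the gene.
Tsc22d3 outer promoter: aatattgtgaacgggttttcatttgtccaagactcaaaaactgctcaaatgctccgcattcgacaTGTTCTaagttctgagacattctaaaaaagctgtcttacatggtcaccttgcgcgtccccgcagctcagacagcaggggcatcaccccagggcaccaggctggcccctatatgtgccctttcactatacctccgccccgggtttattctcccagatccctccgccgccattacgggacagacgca
Tsc22d3 inner promoter: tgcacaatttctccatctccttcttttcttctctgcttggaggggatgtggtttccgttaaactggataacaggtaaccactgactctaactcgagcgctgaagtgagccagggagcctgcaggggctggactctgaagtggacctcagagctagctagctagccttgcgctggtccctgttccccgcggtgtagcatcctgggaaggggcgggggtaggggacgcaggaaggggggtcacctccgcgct

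Tsc22d3 had 1263, 1395, 1067 and 1264 normalised counts in CaKO replicates 1 to 4, against an implied control level of 1703. Replicates 1 and 4 were nearly equal, replicate 2 was the highest, and all 4 lay below the control level, between 62.6% and 81.9% of it. The CaKO mean was 1247 ± 135 normalised counts (SD, n = 4), and its coefficient of variation of 10.8% was close to the median of listed genes. Tsc22d3 fell 1.37-fold per the authors' deposited table, which gives -0.45 on the log2 scale and an adjusted p of 0.00919, with an implied SE of 0.12. The implied 95% interval ran from -0.68 to -0.22. By the approximation used for Dbp, this call ended without CaKO replicate 3, with a difference of -0.38 on the log2 scale. It held when any of the other libraries was left out. The approximation does not measure the spread of the libraries left, so a refit could differ.

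Zbtb16 (ENSMUSG00000066687.5) lies on chromosome 9 from 48654297 to 48836222 on the minus strand (GRCm38) and spans 182.0 kb. It had 583.9, 593.1, 397.6 and 588.8 normalised counts in CaKO replicates 1 to 4, against an implied control level of 682.5. Replicates 1, 2 and 4 lay within 10 counts of each other, at 85.6% to 86.9% of the control level, and replicate 3 stood apart at 58.3%. The CaKO mean was 540.9 ± 95.6 normalised counts (SD, n = 4). The authors' deposited table gives a log2 fold change of -0.34 with an adjusted p of 0.151 (unadjusted p = 0.0115). The implied SE was 0.13 and the implied 95% interval ran from -0.60 to -0.08. Without replicate 3 the log2 fold change was -0.21 with an approximate p of 0.137.

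Per kilobase of exon, which allows genes to be compared, Tsc22d3 had the highest CaKO level at 287.3 normalised counts per kilobase, against 102.4 for Zbtb16 and 81.99 for Dbp. These levels exceeded those of 70.9%, 42.0% and 35.8% of the listed genes in the adjustment. Tsc22d3 thus stood above both other genes in level per kilobase while Dbp, the lowest of the 3, had the largest difference between genotypes. No other mouse gene had a transcript near-identical to one of these 3 (98% identity over at least 200 bases and 50% of either transcript).

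Replicate 3 was the lowest CaKO library for each of the 3 genes, at 66.0% of the mean of the other libraries for Dbp, 81.6% for Tsc22d3 and 67.6% for Zbtb16. Many of the genes that were lower in CaKO shared this. Of the 1123 genes of the adjustment that were lower at an unadjusted p below 0.05, 674 (60.0%) had their lowest CaKO value in replicate 3. Over all such genes, higher or lower, replicate 3 was the lowest of the 4 for 36.5%.

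The other clock genes gave few values. None of the 21 core clock genes was called in either direction, and 3 (14.3%) had an unadjusted p below that threshold in the authors' deposited table, against 15.8% of all 12938 genes (8.68% lower and 7.14% higher). This share is near the background, so nothing about the clock is read from it. Each of the 3 was lower, and their median was -0.31 on the log2 scale, beside -0.37 over the 1123 genes that were lower by the same rule. Ciart, a repressor of CLOCK and BMAL1, had 74.37, 58.11, 63.62 and 86.49 normalised counts in the CaKO libraries, against an implied control level of 105.7. The authors' deposited table puts its difference at -0.58 on the log2 scale (adjusted p = 0.165). Csnk1e, a kinase that marks PER proteins for degradation, and Npas2, a partner of BMAL1 that can take the place of CLOCK in the forebrain, stood at -0.31 and -0.29 on that scale, per the authors' deposited table, with adjusted p-values of 0.0831 and 0.191. The core genes Arntl (which encodes BMAL1), Clock, Per1, Per2, Cry1, Nr1d1 were among the 18 without a value here, which means an unadjusted p of 0.05 or more or no place in the adjustment. The relatives of Dbp in the PAR bZIP family, Tef and Hlf, and Nfil3, a repressor that binds the same D-box, had none either.

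Among genes that respond to glucocorticoids in other settings, 6 of 30 had a value, which needs an unadjusted p below 0.05, and these were lower. Of 30 such genes, which include Tsc22d3 and Zbtb16, 3 (10.0%) fell and 6 (20.0%) were lower, with 0 higher, going by the unadjusted p of the authors' deposited table. Over all genes, 1.97% fell and 8.68% were lower. Apart from Tsc22d3 and Zbtb16, 2 of 28 fell and 4 of 28 were lower. Those 2 genes were picked on these values, and the list was chosen with earlier results of these data known. Nothing about glucocorticoid action is therefore read from these shares. Mfsd2a, a lipid transporter of the blood-brain barrier, averaged 383.2 ± 28.0 normalised counts in CaKO (SD, n = 4), against an implied control level of 524.7. Per the authors' deposited table it fell by 0.45 on the log2 scale with an adjusted p of 0.0178, and all 4 CaKO libraries, from 342.7 to 406.4, lay below the control level. Mertk, a receptor by which astrocytes and microglia take up debris, averaged 724.6 ± 49.8 in CaKO (SD, n = 4), against an implied 929.7 in controls. Per the authors' deposited table it fell by 0.36 on that scale, with an adjusted p of 0.0382. The transcription factors Cebpb and Bcl6 stood at -0.53 and -0.34 on the log2 scale, per the authors' deposited table, and did not pass (adjusted p of 0.18 and 0.103). The widely used reporters of glucocorticoid action Fkbp5, Sgk1, Per1, Klf9 and Ddit4 were among the 24 genes without a value. Without CaKO replicate 3, 1 of the 3 calls held, that of Mfsd2a, which instead ended without replicate 2 (log2 fold change -0.40). The call of Mertk ended without replicate 3 (-0.36) or replicate 4 (-0.31). Without replicate 3 its log2 fold change was unchanged, so that call ended through the widened SE alone.

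**Figure D2:**
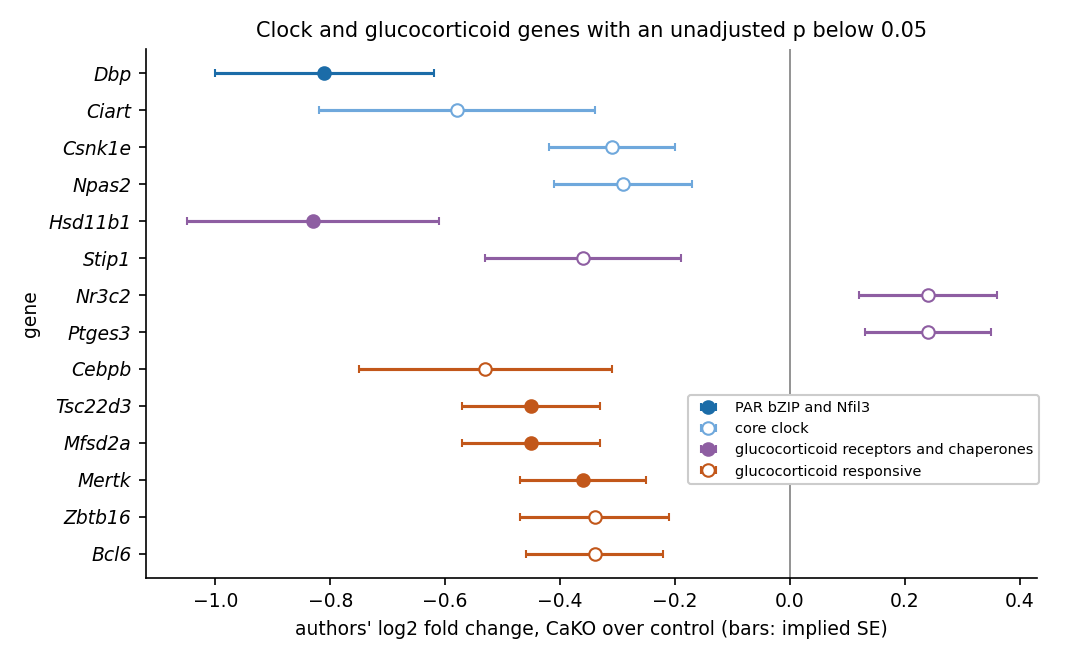
Authors' log2 fold change, CaKO over control (horizontal axis), with the SE implied by their p, for the genes of the clock and glucocorticoid lists with an unadjusted p below 0.05, coloured by list. Filled symbols passed at an adjusted p below 0.05. Dbp (-0.81) and Hsd11b1 (-0.83) lie farthest to the left, and Nr3c2 and Ptges3 (0.24 each) are the genes to the right of 0.

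Among the genes that encode the hormone receptors, fold them or act on the hormone, Hsd11b1 was the 1 call. Going by the unadjusted p of the authors' deposited table, 2 of 11 (18.2%) were lower, of which 1 fell, and 2 were higher, against 8.68% lower, 1.97% called lower and 7.14% higher over all genes. Hsd11b1 encodes the enzyme that regenerates active glucocorticoid from its inactive form inside cells. It had 232.2, 228.4, 120.3 and 173.0 normalised counts in CaKO replicates 1 to 4, against an implied control level of 336.0. All 4 libraries lay below the control level, replicate 3 again the lowest. The authors' deposited table has it 1.78-fold lower, or -0.83 on the log2 scale, at an adjusted p of 0.0104. This call ended without replicate 3, at -0.67. Nr3c2, the mineralocorticoid receptor, which binds corticosterone with high affinity, and the chaperone gene Ptges3 each stood at 0.24 on the log2 scale, per the authors' deposited table, with adjusted p-values of 0.303 and 0.27. Stip1, a co-chaperone that hands receptors to Hsp90, was at -0.36 with an adjusted p of 0.263, per the authors' deposited table. Nr3c1, the glucocorticoid receptor, had no value here.

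Families by name gave no further call. Of the 4 TSC22 family genes, Tsc22d3 was the 1 with a value. Of 41 protein-coding Zbtb genes, which share the BTB domain and zinc fingers of Zbtb16, 0 were called, and 2 were lower and 2 higher by the unadjusted p of the authors' deposited table. These 4 are 9.76% of the family, against 15.8% of all genes past that p and 3.24% called. Zbtb7b, a factor best known from T cell development, averaged 105.2 ± 31.3 normalised counts in CaKO (SD, n = 4) and stood at -0.65 on the log2 scale with an adjusted p of 0.0511, per the authors' deposited table. Zbtb6 and Zbtb44 stood at 0.30 and 0.29 there, with adjusted p-values of 0.203 and 0.287.

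Markers of several cell types differed as well, some lower and some higher. Over all genes, 8.68% were lower and 7.14% higher by the unadjusted p, while 1.97% fell and 1.27% rose. Of 7 markers of cortical excitatory neurons, the cells in which Cre acts, 4 were lower by the unadjusted p of the authors' deposited table, and 1 of them, Nrgn, fell, at -0.50 on the log2 scale with an adjusted p of 0.0238. Emx1, Tbr1 and Camk2a stood at -0.44, -0.23 and -0.20 there and did not pass. The sum of the 4 ran from 49161 to 67761 normalised counts over the CaKO libraries, against an implied 74361 in controls, and replicate 3 was the lowest. All 8 mature oligodendrocyte markers were lower by the unadjusted p of the authors' deposited table, and 4 of them fell. Their summed level ran from 36676 to 44835 normalised counts over the CaKO libraries, against an implied 58558 in controls, and 0 of them were at 0. Of 6 genes listed as oligodendrocyte precursor markers, Gpr17 and Olig1 fell, with a summed level of 1495 to 2259 in CaKO, against an implied 2858 in controls. Pdgfra, Cspg4, Olig2 and Sox10 had no value here, so the fall is that of Gpr17 and Olig1 alone. For 2 of 6 endothelial markers, Ly6c1 and Flt1, the sum was 1707 to 1781 in CaKO, against an implied 2100 in controls. For 2 of 6 astrocyte markers, Aldh1l1 and Gfap, it was 1317 to 1613 in CaKO, against an implied 1839 in controls. Of these 4 endothelial and astrocyte markers Ly6c1 fell, and the rest were lower without passing. Of 11 immediate early genes, which respond to activity and handling, Egr1 and Egr4 (18.2%) were lower and not called. Their sum was 3040 to 5422 in CaKO, against an implied 6845 in controls. Except for mature oligodendrocytes, each sum holds only the markers of its list with an unadjusted p below 0.05, all of them lower. Such a sum lies below the control level through that choice, and it does not measure the whole list or the cell type. The meningeal markers Ogn and Ptgds (2 of 6) rose, and 3 of 5 blood markers were lower, of which Hba-a1 fell. Of 6 microglial markers, 1 (16.7%) was higher without passing. Of 5 striatal markers, Drd1 was higher at 0.41 on the log2 scale and Ppp1r1b lower at -0.47, per the authors' deposited table. Neither passed, with adjusted p-values of 0.237 and 0.149. No value was listed for any of 6 interneuron or 5 mural markers. The part of these cell types and of activity in the decrease of Dbp, Tsc22d3 and Zbtb16 was not tested.

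Patterns over the libraries were compared by the log2 ratio of each CaKO library to the implied control level, with the largest difference over the 4 libraries as the measure of likeness, among 1970 genes with a CaKO mean of at least 50. The genes most like Dbp were Rpl28, a ribosomal protein gene, the immediate early gene Egr1, and Mrps21, of the mitochondrial ribosome, within 0.23, 0.25 and 0.25. Rpl28, Egr1 and Mrps21 all had the same order of libraries as Dbp, lowest in replicate 3 and highest in replicate 4. Egr1 had 3325, 4125, 2863 and 4800 normalised counts in CaKO replicates 1 to 4. It stood at -0.68 on the log2 scale per the authors' deposited table, at an adjusted p of 0.204. Nearest to Tsc22d3 were Gpatch1, Cux1 and Ik, within 0.033, 0.083 and 0.084, and nearest to Zbtb16 were Cops7b, Ndufb11 and Zfp366, within 0.075, 0.076 and 0.079. The 3 genes were not each other's closest matches. Tsc22d3 and Zbtb16 differed by up to 0.22, Dbp and Tsc22d3 by up to 0.62 and Dbp and Zbtb16 by up to 0.82. With 4 libraries such a likeness is a description, and all values share the same libraries.

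**Figure D3:**
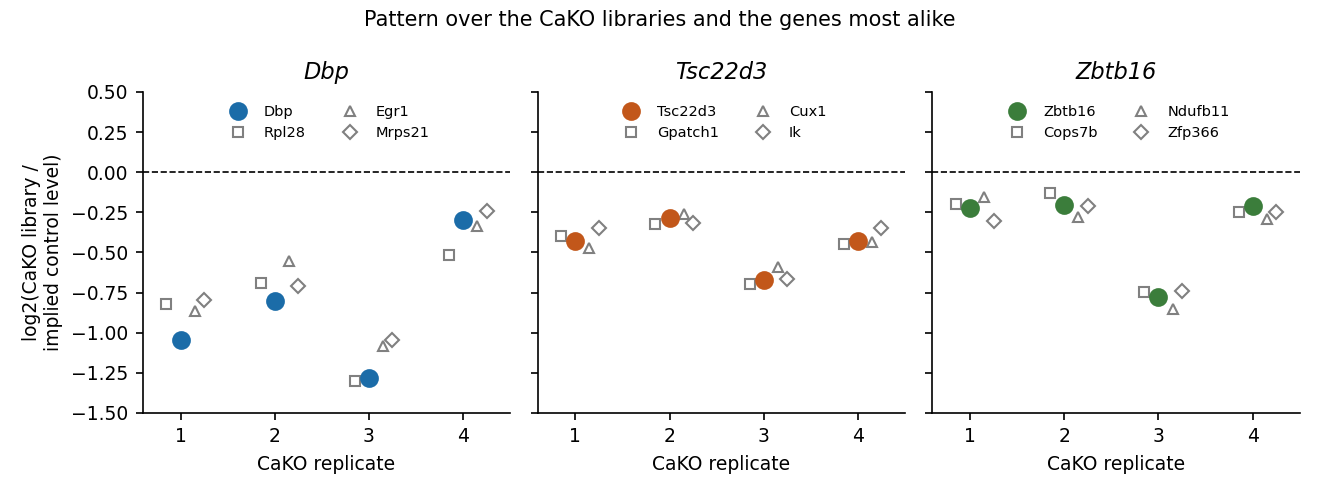
Log2 ratio of each CaKO library to the control level implied by the authors' fold change (vertical axis) by CaKO replicate (horizontal axis), for Dbp, Tsc22d3 and Zbtb16 (filled) and the 3 genes nearest to each (open), with the control level dashed at 0. Dbp varies most over the replicates, and in Zbtb16 and its neighbours replicate 3 alone stands low.

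The promoters were searched on both strands, over the 250 bases before each start, for motifs of both systems. The E-box CACGTG occurs in 6.02% of all 32851 RefSeq promoters (GRCm38.p6), the D-box TTATGTAA or TTACGTAA in 0.932%, and the full glucocorticoid response element, AGAACA and TGTTCT with 3 bases between them, in 3 promoters. None of these was found in the windows before the RefSeq start of Dbp and the 3 RefSeq starts of Tsc22d3. These windows do not cover the bases before the protein-coding GENCODE start of Tsc22d3 at 140543187. They cover few of the bases just before another such start, at 140548338, so nothing is said of either promoter. The hexamer AGAACA, which a full element contains on both strands, occurs in 16.1% of promoters and was found once, at the outer start of Tsc22d3. The CCAAT box CCAAT, a general promoter element found in 33.8%, was the 1 match in the Dbp window. The nuclear receptor hexamer AGGTCA, found in 14.0%, was in no searched window of either gene. The missing matches say only that these letters are not in these windows, since these factors also bind other sequences and more distant sites. The Dbp window held 62.4% G or C, against a median of 52.4% over all promoters.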

How the data were processed

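Poly-A RNA of each mouse was sequenced in paired ends, per the labels' protocols. Per the submitters' processing notes the tools were TopHat2 2.0.12, HTSeq 0.6.1 and DESeq2 1.30.1, on GRCm38 (mm10). The values in the deposited table, named for FPKM, are a signal: in each library 100.0% were whole multiples (tolerance 0.01) of 1 step, so the authors divided read counts by 1 factor per library. The log2 fold changes, p-values and adjusted p-values are the authors', as deposited. All 18 genes at 0 in every CaKO library had negative fold changes, which gives the direction as CaKO over control. The adjusted p-values match a Benjamini-Hochberg adjustment over 12938 genes within a relative difference of 0.00504. A further 325 genes with an adjusted p of 1 were taken as outside the adjustment.

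Rows were matched to GENCODE M21, 2266 at identical coordinates and 89 where a single gene on the same strand overlapped mutually by 80%, which left 17 without a name. None of the 17 overlapped a gene of the lists. Named were the 3 genes, every gene of 5 clock and glucocorticoid lists with an unadjusted p below 0.05, called Zbtb genes (0, so those with an unadjusted p below 0.05 were named, chosen after their values were seen) and the 3 genes most alike in pattern to each member. Other genes without a value are named as examples of the lists. Members and lists were chosen with earlier results of these data known. "Rose" and "fell" are used of calls, "higher" and "lower" of unadjusted p-values below 0.05.

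The planned fit with limma needed control values and was not run. Leaving out a CaKO library kept the control level implied by the fold change and widened the implied SE for 3 libraries. A call needed a p of at most 0.00162, the largest of a called gene. The spread of the libraries left was not measured anew, so whether a call would hold or end in a refit is unknown. Steps were tested on simulated data. Promoters are from RefSeq (GRCm38.p6), with entries for 2 of the 3 genes. Near-identical copies were sought with BLAST 2.17.0. Python 3.11.15 and scipy 1.17.1 were used.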

Additional observations from a re-analysis of the deposited data

Results flagged for a closer look

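In Zbtb16, CaKO replicate 3 stood apart from the other libraries: its gap to the nearest of them was 0.953 of the whole range, above Dixon's 95% critical value for 4 samples. The values were 397.6 normalised counts in replicate 3 and 583.9, 593.1 and 588.8 in replicates 1, 2 and 4. It was the 1 gene flagged of 17 examined, and chance flags about 1 in 20.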

How the results depend on the processing

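No paired analysis was possible because the table used here carries library values of the CaKO mice alone. A change of threshold leaves a fold change as it is. Dbp and Tsc22d3 were called at an adjusted p below 0.01 and below 0.1, and Zbtb16 at neither. The fold changes of Dbp, Tsc22d3 and Zbtb16 kept their sign under both rescalings and with each CaKO library left out. The implied control level was held fixed and every CaKO library lay below it, so leaving out a library could not change the sign. Both rescalings evened out the CaKO libraries among themselves against that same fixed level. They could hardly move a fold change and do not test the scaling of CaKO against control. Without 1 CaKO library the log2 fold change ran from -1.03 to -0.68 for Dbp, from -0.51 to -0.38 for Tsc22d3 and from -0.38 to -0.21 for Zbtb16. The call of Tsc22d3 ended without replicate 3. Over the whole table, 164 genes rose and 255 fell, 51 and 90 at an adjusted p below 0.01, 275 and 396 below 0.1, and 76 to 129 and 104 to 222 without 1 CaKO library, both lowest without replicate 3. The glucocorticoid responsive genes gave 3 calls, all lower, 1 at 0.01 and 1 to 3 with a library left out. The receptor and chaperone list gave 1 call, 0 at 0.01 and 0 to 1 with a library left out, and the TSC22 family 1 call and 0 to 1. At 0.1, 1 core clock gene (Csnk1e) and 1 Zbtb gene (Zbtb7b) would be called, both lower. Csnk1e would also pass without replicate 4 (-0.37), which the counts with a library left out do not include, since they cover losses of calls alone. The cause of these changes was not tested. A filter on a CaKO mean of 10 or more, exact matches alone, and a pseudocount of 1 for the likeness changed none of the counts they were applied to, and levels per kilobase were the same with the annotation's exon lengths. The replicate block, and total depth, could not be examined.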
